A study of Mus musculus with 5 samples.

Results

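The genes described here are 10 genes of pigment cells, and they were measured in retina of mouse pups on postnatal day 7. They are Tyr, Tyrp1, Dct, Pmel, Mlana, Gpnmb, Oca2, Slc45a2, Mfsd12 and Mitf, and all 10 were found by symbol among the 43432 Ensembl genes of the table. They were chosen by their names as pigment cell genes, with Mfsd12 added, and selected on the measured difference between the groups in these same 5 libraries, which was known when the list was drawn up. Every difference between groups in these 10 genes is therefore given as a description. The calls quoted for them come from fits across all genes and use the values that chose the list, so they are no independent evidence. Of the 10, 9 passed the filter on low counts that left 17039 genes for testing, and Slc45a2, with 7 to 10 reads per library, did not.

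Poly(A) RNA of retina was sequenced in 5 libraries, of which 3 are controls, named a, b, c, and 2 carry the label Mettl14 cko and the names a, b. The labels give no allele, Cre line, strain, coat colour, sex or number of animals per library, and no treatment for either group; the abbreviation cko is not spelled out, and the name of the deposited table holds Six3M3M14, whose parts are not explained. Whether the libraries labelled cko carry a change in Mettl14 alone or also in Mettl3, which the title of the series names beside it, is not settled by the labels. Each library held 24315693 to 27100918 reads counted in genes. Nothing in the labels says that the libraries came from separate animals, so a p-value reflects no more than the spread among the 5, which may be technical. Mettl14, which with Mettl3 forms the enzyme that writes N6-methyladenosine on messenger RNA, stood at 41.5, 46.7 and 38.7 CPM in the controls, in the order of their letters, against 55.6 and 44.8 CPM with the label cko (CPM is the count of a gene per 1000000 reads after scaling for library composition). Mettl3 was at 72.4, 71.3 and 66.0 CPM against 65.6 and 52.0 CPM, with the groups apart (log2 -0.25, SE 0.19; edgeR adjusted p = 0.615). Mettl14 was not lower in the libraries that carry its name, so each direction below is that of the libraries as labelled. The rod gene Sag, at 4255 CPM in the controls, matched the labelled tissue.

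Melanin is made inside melanosomes, organelles related to lysosomes. Tyrosinase starts the synthesis from tyrosine, its relatives Tyrp1 and Dct carry out later steps, Pmel forms the fibrils on which the pigment is laid down, and transporters in the membrane set the acidity and the cysteine supply of the organelle. Mitf, a basic helix-loop-helix leucine zipper factor, drives many of these genes in pigment cells by binding E-box sequences. In the eye most of these genes mark the retinal pigment epithelium, the pigmented layer behind the photoreceptors. They also mark the pigmented cells of the iris and ciliary body, and the melanocytes of the choroid. Mfsd12 and Gpnmb are not restricted to pigment cells. The neural retina itself makes no melanin. The pigment epithelium separates from the retina at dissection to a varying degree.

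The promoters of the 3 melanin enzyme genes carried the same 10 letters. RefSeq promoter windows (250 bases before to 50 bases after the annotated start, GRCm38.p6) were at hand for 7 of the 10 genes, in 9 windows, 3 of them for Mitf. The M-box GTCATGTGCT, an extended E-box known as a binding site of Mitf, was found in 3 of the 9 windows, those of Tyr, Tyrp1 and Dct, each time on the strand of the gene and starting 23, 48 and 152 bases before the RefSeq start. The gene coordinates given further below are from GENCODE, where Tyrp1 begins at 80834123. By that annotation its M-box, at 80834165 to 80834174, and most of its printed stretch lie inside the gene. It is the longest run of letters that the 3 windows share, it was picked after the sequences had been read and 7 other short strings searched, and it is no test. In all promoter windows of the table, 61 of 32851 held it on either strand (0.186%). Of the 39 other gene symbols with such a window, 3 passed the filter on low counts; their median log2 fold change, label cko over control, was 0.31, edgeR called 0 of the 3 (0 at an unadjusted p under 0.05), and the groups stood apart downward for 0 and upward for 1. The stretches are shown because they hold the letters these 3 genes share, with the M-box in capitals; those of Mfsd12 and Gpnmb, among the members that stood lowest in the libraries labelled cko, are shown for contrast and hold no capitals. All are 100 bases long, written 5′ to 3′ on the strand of the gene; the one of Dct ends 81 bases before the start and the others end at the base before it.
Tyr, chr7:87493513-87493612, minus strand: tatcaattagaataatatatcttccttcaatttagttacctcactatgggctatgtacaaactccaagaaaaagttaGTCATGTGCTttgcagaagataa
Tyrp1, chr4:80834113-80834212, plus strand: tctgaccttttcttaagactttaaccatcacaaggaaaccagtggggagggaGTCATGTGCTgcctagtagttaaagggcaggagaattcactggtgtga
Dct, chr14:118052327-118052426, minus strand: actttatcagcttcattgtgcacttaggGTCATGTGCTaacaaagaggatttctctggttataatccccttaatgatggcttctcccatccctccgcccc
Mfsd12, chr10:81357391-81357490, plus strand: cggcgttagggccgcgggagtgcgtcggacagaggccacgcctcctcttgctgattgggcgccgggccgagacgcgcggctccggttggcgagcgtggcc
Gpnmb, chr6:49036418-49036517, plus strand: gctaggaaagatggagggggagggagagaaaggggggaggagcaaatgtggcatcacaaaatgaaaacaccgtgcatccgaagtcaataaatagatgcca

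The shorter E-box CATGTG, which lies inside the M-box, stood in 4 of the 9 windows, the fourth being that of Oca2, 186 bases before its start on the opposite strand; 14.2% of all windows held it. Its variant CACGTG was in 0 of the 9 windows, against 7.15% of all windows. The letters TAATCC, a core bound by the homeodomain factor Otx2, were in the windows of Tyrp1, Dct and 1 start of Mitf, against 7.06% of all windows. These are matches of letters on either strand and say nothing of binding in these libraries.

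Levels of the 10 genes in the controls ran from that of Pmel, the highest, to that of Slc45a2, at a few reads per library. On a scale that allows genes to be compared, CPM per kilobase of exon, the control mean of Pmel was 54.5 ± 28.0 (SD, n = 3), which ranked it 997 among the 17039 genes tested. Mfsd12 followed at 14.5 ± 2.22, Dct at 10.6 ± 4.31 and Tyrp1 at 7.88 ± 2.47. Gpnmb was at 2.24 ± 1.07, Mlana at 1.32 ± 0.643 and Oca2 at 0.794 ± 0.260 CPM per kilobase (SD, n = 3 for each). The level of Tyr per kilobase lay between those of Mlana and Oca2 and ranked 12731. Mitf was at 0.496 ± 0.0994 and Slc45a2 at 0.111 ± 0.0330 CPM per kilobase. In this order the control ranges of Pmel and Mfsd12, of Tyrp1 and Gpnmb, of Oca2 and Mitf, and of Mitf and Slc45a2 did not overlap; those of the other neighbours did. Together the 10 genes took up 0.0219%, 0.0251% and 0.0396% of the reads of the 3 controls, against 0.0150% and 0.0166% with the label cko.

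**Figure D1:**
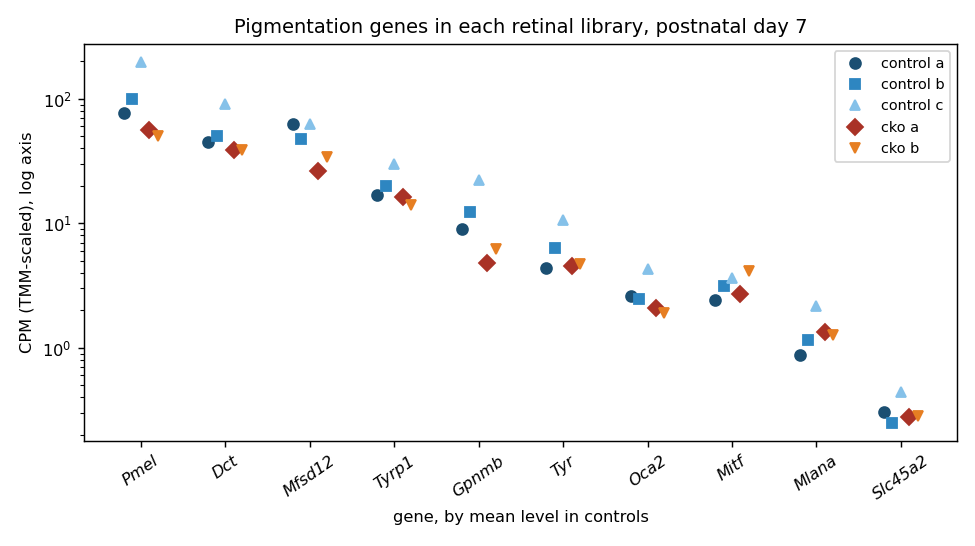
CPM (log axis) of the 10 pigmentation genes in each library, 1 symbol per library, ordered by the control mean. Control c lies highest among the controls for every gene, though nearly level with control a for Mfsd12. Both libraries labelled cko lie below all controls for Pmel, Dct, Mfsd12, Tyrp1, Gpnmb and Oca2.

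Between the groups, 6 of the 10 genes had both libraries labelled cko below all 3 controls, and the groups overlapped in the other 4. Across all genes tested, 13.7% were apart in that direction and 15.8% in the other. EdgeR's quasi-likelihood test across all genes, adjusted by Benjamini-Hochberg, called 0 of the 9 members tested at an adjusted p under 0.05. It called 17 of all 17039 genes (0.0998%), 16 of them lower (0.0939%) and 1 higher (0.00587%). In the same test 4 of the 9 had an unadjusted p under 0.05. The share over all genes tested was 10.8% in either direction and 5.36% downward. DESeq2 called 3 members, Pmel, Gpnmb and Mfsd12, and 85 of the 16195 genes to which it gave an adjusted p (0.525%). EdgeR without a filter on low counts called the same 3 and 262 of 26720 genes (0.981%), and limma-voom called 0 and 16 of 17039 genes (0.0939%). The median log2 fold change of the 9, libraries labelled cko over control, was -0.65, beside -0.01 for all genes tested. Nothing is read from these counts, since the list was made with this contrast known.

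The enzymes came first in the order of the pathway. Tyr, the copper enzyme that starts melanin synthesis (chromosome 7, 87424771 to 87493512, protein-coding), was at 4.38, 6.37 and 10.6 CPM in the 3 controls, by letter, and at 4.57 and 4.69 CPM with the label cko. Control a lay below both of them, so the groups overlapped; the log2 fold change was -0.61 (SE 0.35). Tyrp1, which stabilises tyrosinase and acts on a later intermediate (chromosome 4, 80834123 to 80851719), was at 16.8, 19.9 and 30.2 CPM against 16.3 and 14.0 CPM. The groups stood apart, but by little, since the higher library labelled cko reached 97.0% of the lowest control; the log2 value was -0.56 (SE 0.28). Dct, which converts dopachrome (chromosome 14, 118012790 to 118052244), was at 45.0, 50.3 and 91.4 CPM against 39.0 and 38.5 CPM. Both libraries labelled cko were below every control and nearly equal to each other, and the log2 value was -0.68 (SE 0.29). The values of these 3 genes depended on control c, the highest library for each; without it the log2 values were -0.24, -0.30 and -0.32.

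Among Pmel, Gpnmb and Mlana, Pmel and Gpnmb stood lowest against the controls. Pmel, the fibril protein of the melanosome (chromosome 10, 128704195 to 128720238), was at 76.5, 101 and 198 CPM in the 3 controls, by letter, and at 56.1 and 49.9 CPM in the libraries labelled cko. The control mean was 125 ± 64.2 (SD, n = 3) and the other 53.0 ± 4.44 (SD, n = 2), with a fitted log2 value of -1.24 (SE 0.34). The groups did not overlap, with the higher library labelled cko at 73.4% of the lowest control. The log2 value was -0.76 without control c. Gpnmb, a glycoprotein related to Pmel that macrophages also make (chromosome 6, 49036546 to 49070929), was at 9.07, 12.2 and 22.5 CPM against 4.84 and 6.24 CPM. This was the largest difference among the 9 genes, a 2.63-fold lower mean (log2 -1.39, SE 0.37), and again the groups stood apart; without control c the log2 value was -0.96. Mlana, a small membrane protein that in human cells aids the processing of Pmel (chromosome 19, 29697824 to 29708634), was at 0.876, 1.15 and 2.17 CPM against 1.34 and 1.27 CPM, on 23 to 49 reads per library. Its groups overlapped, and its log2 value of -0.09 (SE 0.43) became 0.34 without control c.

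Among the transporters, Mfsd12 differed from the other members in how the controls spread. Mfsd12 brings cysteine into melanosomes and, in other cells, into lysosomes, and so is not restricted to pigment cells (chromosome 10, 81357491 to 81366225). It was at 62.7, 47.6 and 63.0 CPM in the 3 controls, by letter, and at 26.1 and 33.9 CPM in the libraries labelled cko. The groups stood apart, at 57.8 ± 8.81 (SD, n = 3) against 30.0 ± 5.53 (SD, n = 2), which fitted as -0.94 on the log2 scale (SE 0.22). This value rested less on any library than those of the enzymes and Pmel, running from -1.15 to -0.77 with each library left out in turn. Part of the gene is shared: 1179 of its 3971 exon bases (29.7%) lie under exons of 4930404N11Rik on the opposite strand, and 4 more under Fzr1. 4930404N11Rik was at 0.892 CPM in the controls and 0.805 in the libraries labelled cko. The strand setting of the counting is not given in the sources used here, so how reads of the shared stretch were assigned is unknown.

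Oca2, a melanosomal membrane protein that raises the pH of the organelle (chromosome 7, 56239760 to 56536518), was at 2.63, 2.47 and 4.33 CPM in the controls and at 2.09 and 1.90 CPM in the libraries labelled cko. The groups stood apart (log2 -0.65, SE 0.35; -0.37 without control c). Slc45a2, another transporter of the melanosome (chromosome 15, 11000721 to 11029233), had 8, 7 and 10 reads in the controls and 7 and 8 in the libraries labelled cko. The counts overlapped and were above the 3 reads taken as the floor for detection, and no fold change was fitted.

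Mitf, the transcription factor (chromosome 6, 97807052 to 98021349), was at 2.44, 3.12 and 3.67 CPM in the controls and at 2.72 and 4.13 CPM in the libraries labelled cko, with overlapping groups. Its log2 value was 0.16 (SE 0.32), which became 0.43 with cko a left out and -0.18 with cko b left out; either leaves 1 library in that group, taken to vary like the controls. The count covers all starts of Mitf, so the transcript forms of pigment epithelium and melanocytes were not told apart.

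**Figure D2:**
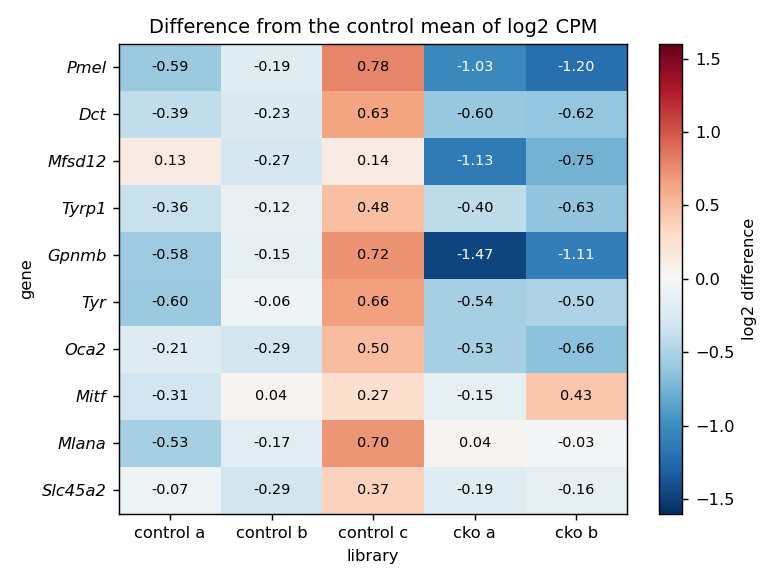
Difference of each library from the control mean of log2 CPM (prior count 2) for the 10 genes, in rows ordered by control level, with the value printed in each cell. Control c is positive in every row, and the libraries labelled cko run from -1.47 for Gpnmb in cko a to 0.43 for Mitf in cko b.

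The spread among controls was itself a feature of most of these genes. Control c was the highest control for all 10 in CPM, while it was the highest for 39.4% of all genes tested. A high control c widens a downward difference between the groups, and the list was selected on that difference. The count of 10 is therefore a description and no independent evidence. For Mfsd12 control c was nearly level with control a (63.0 and 62.7 CPM), and for Slc45a2 it rested on 10 reads against 8 and 7. The ratio of the highest to the lowest control was 2.59 for Pmel, 2.48 for Gpnmb, 2.47 for Mlana, 2.41 for Tyr and 2.03 for Dct. For Tyrp1 it was 1.79, for Slc45a2 1.76, for Oca2 1.75 and for Mitf 1.50. The ratio for Mfsd12 was 1.32, close to the median of 1.38 over all genes tested. Between the 2 libraries labelled cko the ratio was 1.01 to 1.30, except for Mitf (1.52). A ratio taken over 2 libraries tends to be smaller than one taken over 3, so the spreads of the groups are not compared.

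Shares within the pigment gene signal differed too. Pmel made up 34.6%, 41.2% and 46.4% of the summed CPM of the 10 genes of the 3 controls, and 36.6% and 32.2% with the label cko. Mfsd12 made up 28.4%, 19.5% and 14.8% against 17.0% and 21.9%. Set against Pmel in the same library, Mfsd12 was at 82.0%, 47.3% and 31.9% in the controls and at 46.5% and 68.0% in the libraries labelled cko, so the groups overlapped. Gpnmb stood close to a fixed share of Pmel in the controls and overlapped between the groups, at 11.9%, 12.2% and 11.4% against 8.63% and 12.5%. Dct was at 58.9%, 50.0% and 46.2% of Pmel in the controls and at 69.4% and 77.2% in the libraries labelled cko, and Tyrp1 at 22.0%, 19.8% and 15.3% against 29.1% and 28.0%. Both enzymes were thus higher relative to Pmel in the libraries labelled cko, without overlap. The same held for Tyr (5.73%, 6.34% and 5.34% against 8.14% and 9.41%), Oca2, Slc45a2 and Mitf, so it was not particular to the enzymes. Pmel itself was lower in the libraries labelled cko, which raises any ratio to it. Such ratios were not computed over all genes. Mlana was likewise at 1.10% to 1.15% of Pmel in the controls and at 2.38% and 2.55% in the others.

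**Figure D3:**
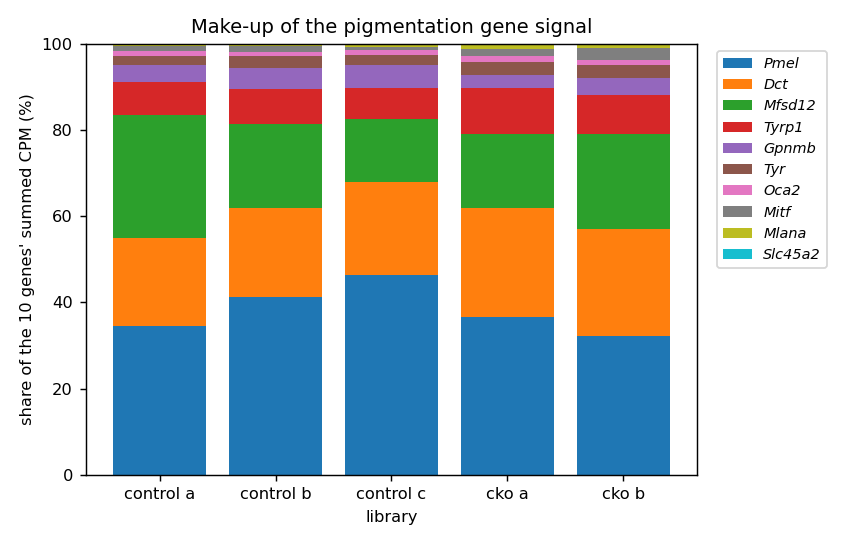
Share of each gene in the summed CPM of the 10 genes, as stacked bars that start at 0 and reach 100%, 1 bar per library. Pmel, Dct and Mfsd12 fill most of each bar; Pmel is largest in control c (46.4%) and Mfsd12 in control a (28.4%).

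Genes with the profile of Pmel were sought by the root mean square difference of mean-centred log2 CPM over the 5 libraries, among 13230 named genes averaging 1 CPM or more. The nearest was Ggt1, a gamma-glutamyl transferase of glutathione breakdown, at a difference of 0.09. It was at 2.36, 2.90 and 5.35 CPM in the controls and 1.50 and 1.52 CPM in the libraries labelled cko. Fap, a fibroblast protease (0.10), Sox10, a neural crest factor of melanocytes and glia (0.12), and Cdh3, a cadherin of pigment epithelium (0.14), were also among the 5 nearest. Sox10 ran at 1.14, 1.72 and 3.14 CPM against 0.945 and 0.917, and Cdh3 at 7.47, 7.98 and 17.2 against 4.09 and 4.48 CPM. Among the pigmentation genes, Gpnmb ranked 19, Dct 45, Tyr 62, Oca2 87 and Tyrp1 94 in likeness to Pmel. Mfsd12 ranked 654, Mlana 1812 and Mitf 6204. The measure is a description of 5 libraries, and the difference between the groups and that of control c both enter it.

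Other genes of the melanosome and of pigment cells were read from 6 lists. In these 6 lists of other pigmentation genes, 63 of 66 members were tested, and edgeR called 0 in either direction (5 had an unadjusted p under 0.05, a share that was 10.8% over all genes in either direction and 5.36% downward). The counts from DESeq2 and from limma-voom were 0 as well. Their median log2 fold change was -0.04, 34 values were negative and 29 positive, and the groups stood apart downward for 10 and upward for 9. Genes that build the organelle and sort its cargo (22 tested) had a median of 0.03. Ap3d1, a subunit of the sorting adaptor AP-3 and the most abundant of them, had 164 ± 43.3 CPM in the controls (SD, n = 3) and 220 ± 3.35 CPM with the label cko (SD, n = 2), and Cd63, a tetraspanin that helps shape Pmel fibrils, 137 CPM in the controls and 101 CPM with the label cko. Bloc1s3, a subunit of the complex BLOC-1, had a log2 value of -0.62 (SE 0.29). In the pairs that follow, the mean with the label cko comes first and the control mean second. Genes that move melanosomes (7 tested) had a median of -0.12; Myo7a, a myosin of pigment epithelium and hair cells, was at 41.1 against 59.2 CPM and Myo5a at 84.9 against 66.0 CPM.

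Channels and receptors of the melanosome (6 tested) had a median of 0.12. Of the 6 values, 4 were positive and 2 negative. Gpr143, a receptor found on melanosomes and mutated in ocular albinism, had the lowest, on 9 to 44 reads per library. It was at 0.457, 0.752 and 1.94 CPM in the controls and 0.354 and 0.388 CPM in the libraries labelled cko. EdgeR fitted this as -1.47 on the log2 scale (SE 0.63, adjusted p = 0.448). Tpcn2, a cation channel, had a log2 value of 0.54 (SE 0.33), and Clcn7, a chloride transporter of lysosomes, 0.07. Lysosome and cystine genes (14 tested) had a median of -0.07, with Ctsd, a lysosomal protease, at 552 against 600 CPM. Signals to pigment cells (5 tested) had a median of 0.10 (-0.02 with cko a left out), with log2 values of -0.36 for Pomc, the precursor of melanocortin, 0.25 for Kitl, the ligand of Kit, and 0.10 for Creb1. Relatives of Mitf and regulators of the eye field (9 tested) had a median of -0.19, which was -0.62 with cko b left out and -0.01 with cko a left out. Pax6 and Otx2, which neural retina also makes in quantity, were higher than every control, at 344 against 221 and 1181 against 857 CPM (log2 0.64 and 0.46; edgeR adjusted p = 0.433 and 0.484). Tfec, the relative of Mitf found in pigment epithelium, had at most 4 reads in a library and was not tested.

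**Figure D4:**
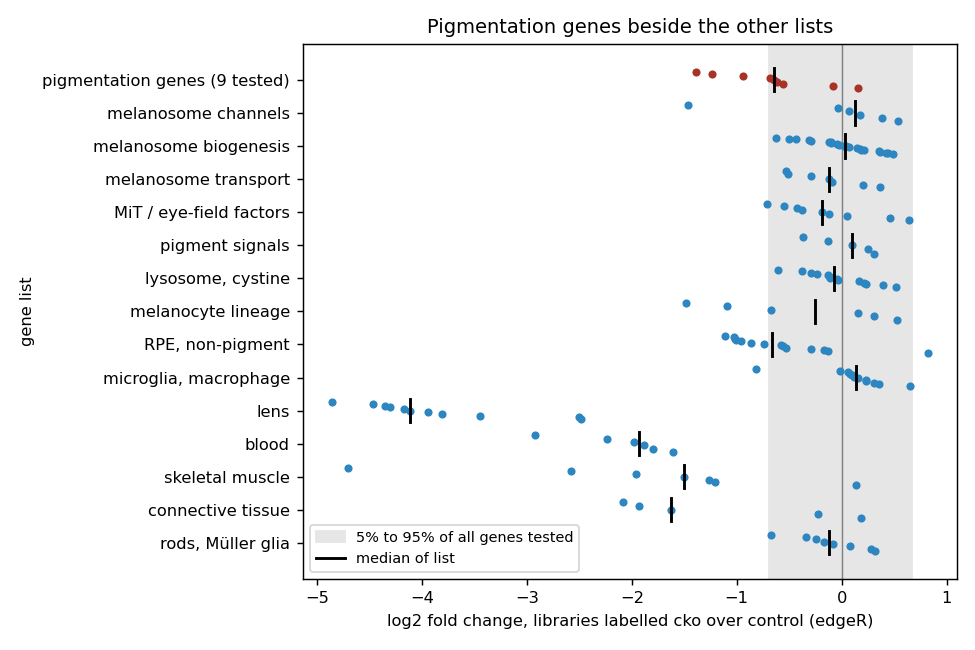
Log2 fold change (libraries labelled cko over control, edgeR) of every tested gene in the pigmentation genes and 14 other lists, 1 point per gene; black bars are list medians and the grey band holds 5% to 95% of all genes tested. The pigmentation genes (median -0.65) and the non-pigment genes of the pigment epithelium (-0.66) lie to the left of zero, as do the lens, blood, muscle and connective tissue lists, while the melanosome biogenesis list (0.03) is centred near it.

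Markers of the cells that carry pigment were read beside them. Of 14 genes of the retinal pigment epithelium that are not pigment genes, all were tested, and edgeR called 0. By edgeR 6 had an unadjusted p under 0.05, 5 of them lower. The share over all genes tested was 10.8% in either direction and 5.36% downward. DESeq2 called 0, as did limma-voom. EdgeR without the filter on low counts called 4, all lower, Stra6, Rdh5, Slc16a8 and Ttr, beside 0.981% of all genes in that setting. The median log2 value of the 14 was -0.66, and 13 were negative. Both libraries labelled cko were below all controls for 7 of the 14, beside 13.7% of all genes tested. The median was -0.40 without control c and -0.39 with the title letter as a block. The summed level of the list was 698 to 910 CPM in the controls and 470 to 584 CPM in the libraries labelled cko, most of it from Rlbp1 (433 against 299 CPM), which Muller glia also make. Rpe65, the isomerase that defines the pigment epithelium, was at 2.90, 2.69 and 8.70 CPM in the controls and at 2.83 and 1.83 CPM in the libraries labelled cko. Stra6, the retinol uptake receptor, was at 19.2, 19.1 and 36.3 against 12.2 and 12.5 CPM (log2 -1.01, SE 0.31; edgeR adjusted p = 0.430). Control c was again the highest for both. Per Rpe65 in the same library, Pmel was at 2641%, 3747% and 2271% in the controls and 1981% and 2719% in the libraries labelled cko, and the groups overlapped. In bulk RNA, fewer pigmented cells in the sample and less RNA per cell cannot be told apart.

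Melanocyte lineage markers (8 genes, 6 tested) had a median of -0.26, which was -0.48 without control a and -0.15 without control c. EdgeR, DESeq2 and limma-voom each called 0 of them. By edgeR 3 had an unadjusted p under 0.05, all lower, beside 5.36% of all genes tested in that direction. The summed level of the 8 genes was 50.9 to 78.6 CPM in the controls and 64.1 to 65.8 CPM in the libraries labelled cko. Most of it came from Kit and Trpm1, which retinal neurons also make. Trpm1 was at 17.9 against 28.6 CPM and Erbb3, a neuregulin receptor of neural crest, at 0.202 against 0.572 CPM (log2 -0.67 and -1.48). Pax3 had 0 reads in all 5 libraries, where 3 reads would correspond to 0.106 to 0.133 CPM. Foxd3 had at most 1 read, and neither gene was tested. Sox10 was detected, with 30, 48 and 71 reads in the controls and 24 and 26 with the label cko (log2 -1.09, SE 0.46). Of the 6 tested, 3 values were negative and 3 positive. Microglia and macrophage genes (12 tested, 0 called by each of the 3 tools and 0 below an unadjusted p of 0.05 by edgeR), listed for Gpnmb, had a median of 0.13, which was 0.45 with cko a left out and -0.21 with cko b left out. Their summed level was 95.4 to 119 CPM in the controls and 103 and 144 CPM in the libraries labelled cko, with Cd68, a lysosomal membrane protein of macrophages, at 4.54 against 2.89 CPM.

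Genes of tissues around the retina were read as well, and those of the lens were lower in the same libraries. Of the 11 lens genes tested, edgeR called 9, all lower, beside 0.0939% of all genes tested called lower. The lens list, like the other lists, was chosen with earlier results of these data known. This count is therefore a description and no independent evidence. The summed level of the 12 listed was 835 to 1798 CPM in the controls against 31.3 to 94.7 CPM. With cko b left out, 0 of the marker genes were called on the same 17039 genes and 3 when the filter on low counts was recomputed. Crybb1, Crybb3 and Bfsp1, structural genes of the lens, had log2 values of -4.86, -3.81 and -4.35 (edgeR adjusted p = 0.00623 for each). Blood genes (6 tested, median -1.93, or -3.04 with cko a left out), skeletal muscle genes (7 tested, median -1.50, or -0.97 without control c) and connective tissue genes (5 tested, median -1.63, or -0.85 without control c) had 0 members called by edgeR, while 15 had an unadjusted p under 0.05. Over all genes tested, 10.8% were under that unadjusted p by edgeR in either direction and 5.36% downward. DESeq2 called 6 of these 18 blood, muscle and connective tissue genes, beside 0.525% of all genes in that tool, and limma-voom called 0. The summed levels were 170 to 463 against 40.9 to 127 CPM for blood and 16.5 to 51.8 against 9.73 to 11.5 CPM for muscle. For connective tissue they overlapped, at 73.2 to 120 against 81.5 to 84.9 CPM, most of it from Pdgfra, which retinal astrocytes make. Control c had the highest sum in these 4 lists, as it did for the 10 pigmentation genes (426 CPM, beside 221 and 244 in control a and b and 153 and 155 in the libraries labelled cko). It was not particular to them. Control c was also the highest control for the summed pigment epithelium, microglia and lysosome lists. The same held for rod and Muller glia genes (13100 CPM, beside 11990 in control a and 9884 in control b). Rod and Muller glia genes (8 tested, 0 called by each of the 3 tools and 0 below an unadjusted p of 0.05 by edgeR) had a median of -0.12, which was 0.02 with cko b left out. The part of these tissues and of dissection in the level of the pigmentation genes was not tested.

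**Figure D5:**
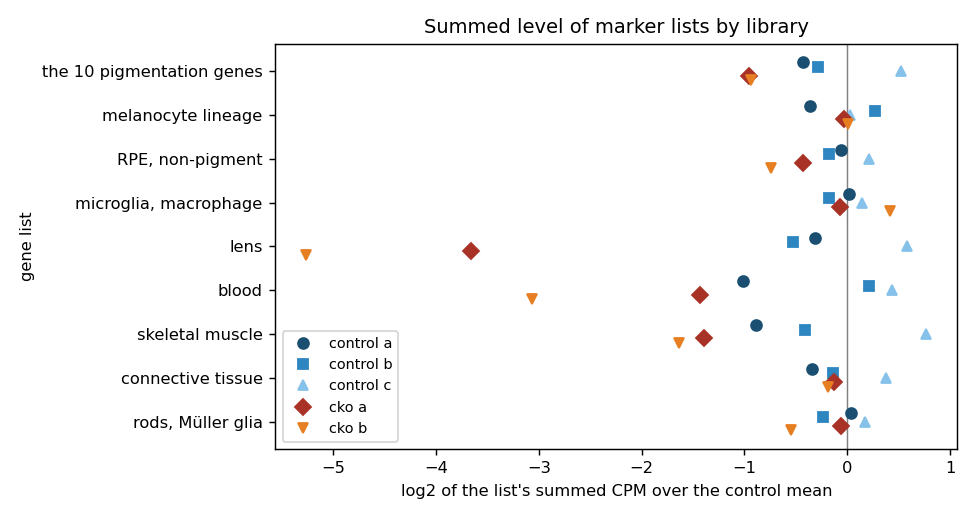
Log2 of the summed CPM of the 10 pigmentation genes and of 8 marker lists in each library over the mean of the 3 controls, 1 symbol per library. Control c lies to the right of control a and b for the pigmentation genes (0.52) and for every marker list except that of the melanocyte lineage. The libraries labelled cko lie left of all controls for the pigmentation genes (-0.95 and -0.94), pigment epithelium, lens, blood and muscle lists.

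The genes beside the members on the chromosome gave values of both signs. Pmel overlaps Cdk2 and Dgka on the opposite strand, by 34 and 105 of its 2292 exon bases. Cdk2 was at 13.1 against 11.5 CPM and Dgka at 7.28 against 7.12 CPM (log2 0.18 and 0.03), beside -1.24 for Pmel. Next to Mfsd12, Hmg20b had a log2 value of 0.02 and Fzr1 one of -0.42 (SE 0.21). The neighbours of Dct, Tgds and Gpc6, had values of -0.17 and 0.09, and Malsu1 next to Gpnmb -0.29. Nox4 and Grm5 on the sides of Tyr had values of -0.62 and 0.39, and Ptprd and Lurap1l beside Tyrp1 0.36 and -0.32. Of the 18 neighbours tested, edgeR called 0, with 1 at an unadjusted p under 0.05; this was Gabrg3 beside Oca2, at 8.03 against 4.40 CPM.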

How the data were processed

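The authors deposited raw counts, whole numbers of reads per gene, for 43432 Ensembl IDs in 5 libraries. CASAVA, HISAT2, featureCounts and build mm10 are named, per the submitters' processing notes; no source used here gives versions, annotation release, strand setting or how reads with more than 1 match were handled. RNA was extracted with TRIzol and prepared with a NEBNext kit, per the labels. Symbols matched 42462 IDs; coordinates and exon lengths are from GENCODE M21 (GRCm38, the assembly that mm10 denotes) and promoter sequences from RefSeq on GRCm38.p6.

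Groups came from the titles. EdgeR 4.0.16 in R 4.3.3 kept 17039 genes by filterByExpr (minimum count 10, minimum total 15), scaled by TMM and ran its quasi-likelihood test on all 5 libraries with group as the only term. Benjamini-Hochberg adjustment ran over all genes tested, with calls at an adjusted p under 0.05. Standard errors were taken as the size of the fold change, on the log2 scale, over the square root of F. CPM uses library sizes scaled by TMM, and log2 CPM a prior count of 2. The steps were tested on simulated data. No 2 libraries agreed within sampling noise (chi-square per degree of freedom at least 26.7). At these depths 3 reads correspond to 0.106 to 0.133 CPM, which covers counting error only.

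The members and lists were chosen with earlier results of these data known. Named genes are the members, their neighbours and overlapping genes, the 5 nearest to Pmel in profile, and from each list called genes, the most abundant and the 2 with the smallest p, except that some of these are not reported here; Rpe65, Sag, Pax3, Foxd3, Tfec, Kit, Pdgfra, Rdh5, Slc16a8, Ttr and the genes with an M-box were singled out after their values were seen. The M-box letters were picked after 7 other strings had been searched in the members' windows and the sequences read, and the printed stretches were placed to show them.

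Alternatives were other scalings (DESeq2 size factors, upper quartile, library totals), other filters, DESeq2 1.42.0, limma-voom (limma 3.58.1), robust edgeR, each library left out, the title letter as a block, and an adjusted p under 0.01. Leaving out a library was first run with the filter on low counts recomputed; after its counts were seen it was replaced by a version on the same 17039 genes, so that only 1 choice changes. Both are given under the dependence on processing.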

Additional observations from a re-analysis of the deposited data

How the results depend on the processing

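With 2 libraries labelled cko, calls over all genes moved with the setting: 17 as reported, 262 without a filter on low counts, 85 with DESeq2, 11 with library totals and 11 at an adjusted p under 0.01. With each library left out in turn on the same genes they ran from 0 (label cko b left out, where 2210 had an unadjusted p under 0.05) to 45 (control b left out). The version run first, which recomputes the filter on low counts and was kept after the data were seen as an added alternative, ran from 10 (label cko b left out, 5 of them shared with the 17) to 38 (control b left out), so the count of 0 depends on that choice. The 10 pigmentation genes had 0 calls as reported and 3 with DESeq2 or without the filter (Pmel, Gpnmb and Mfsd12); they had 0 in every other setting run, with each library left out in both versions. Other pigmentation genes had 0 calls in every setting. Marker genes had 9 calls as reported, all of lens, 28 without the filter and 17 with DESeq2; with each library left out they ran from 0 (label cko b) to 14 (control a), and with the filter recomputed from 3 to 14, for the same 2 libraries. Tyr, Tyrp1, Dct, Pmel, Gpnmb, Oca2 and Mfsd12 were negative in all 14 other settings; the sign changed in 3 for Mlana and in 2 for Mitf. The melanocyte median was 0.16 with the stricter filter, which tests fewer genes. Medians of the other lists that lie near 0 (channels, biogenesis, transport and lysosome genes) ran from -0.25 to 0.21 with each library left out. All 5 genes nearest to Pmel were shared with a prior count of 0.5. The letters a and b in the titles name libraries of both groups, and nothing says that they pair them; deviations correlated at -0.01 for a and 0.15 for b. With the letter as a replicate block 39 genes were called over all genes and 0 of the 10, and the log2 value of Pmel was -0.73 and that of Mlana 0.37, and 13 marker genes were called. With this block the median was -0.96 for muscle, -0.83 for connective tissue and -0.10 for melanocyte genes. The cause of these changes was not tested. Slc45a2, at 7 to 10 reads, was limited by depth.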

Other observations

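Gclc and Gclm encode the catalytic and modifier subunits of the enzyme that limits glutathione synthesis. Gclc was at 46.1 and 46.4 CPM in the libraries labelled cko and at 32.5, 38.1 and 26.1 CPM in control a, b and c (log2 0.52, SE 0.22; edgeR adjusted p = 0.443), above every control. Gclm was at 12.3 and 14.9 CPM against 19.4, 19.5 and 23.1 CPM (log2 -0.60, SE 0.23; edgeR adjusted p = 0.438), below every control. Serpinf1, which encodes the secreted factor PEDF, was the only one of the 14 pigment epithelium genes with a positive log2 value, at 8.98 and 6.60 CPM against 4.23, 4.65 and 4.33 CPM (0.82, SE 0.26; edgeR adjusted p = 0.433). None of the 3 passed over all genes tested.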
